A study of Mus musculus with 7 samples.

Results

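Interferon beta and the chains of the type I and type II interferon receptors were followed through both RNA-seq experiments on bone-marrow-derived macrophages (BMDMs). The genes were taken by symbol: Ifnb1, Ifnar1, Ifnar2, Ifngr1 and Ifngr2. All 5 were found once in the LPS table of 48440 genes and once in the AAV table of 55352 genes. BMDMs were grown with M-CSF, the growth factor that drives macrophage differentiation, from the bone marrow of C57BL/6 mice, and no group came from a knockout. In the LPS experiment the cells carried the genotype label WT. They were left without treatment (0 h) or given 100 ng per mL of LPS, a cell wall component of Gram-negative bacteria. RNA was taken after 2 h and after 4 h, and each time had 1 library. In the AAV experiment the cells were infected for 48 h with an adeno-associated virus that carried GFP (AAV-GFP, 2 samples, genotype label WT) or Shisa3 (AAV-SHISA3, 2 samples, genotype label Shisa3 overexpression). Both vectors used the broadly active CAG promoter, so expression was not restricted to one cell type, and every sample of this experiment had received a virus. By the study's methods the mice were 6 to 12 weeks old and of both sexes, with no age given for single samples. No source says whether samples of a group came from separate cultures, so p-values measure only the spread between these samples.

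Interferon beta is the cytokine that macrophages release early after LPS, when TLR4 signals through the adaptors TICAM2 and TICAM1 to the kinase TBK1 and the factor IRF3. It binds a receptor made of IFNAR1 and IFNAR2, whose kinases TYK2 and JAK1 act on STAT2, and STAT2 with IRF9 switches on the interferon-stimulated genes. Interferon gamma, made mainly by T and NK cells, binds the ligand-binding chain IFNGR1 and the signalling chain IFNGR2, which act through JAK1 and JAK2 and prime macrophages for antimicrobial functions.

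The promoters of the ligand gene and of the receptor chains that moved in opposite directions after LPS are shown because they differ in base composition and in motif content. In the annotation used here, GENCODE M21 on GRCm38, Ifnb1 (ENSMUSG00000048806.4) lies on chromosome 4 from 88522025 to 88522774 on the minus strand, and its single exon has 750 nucleotides, of which 546 are coding. Ifngr1 (ENSMUSG00000020009.12) lies on chromosome 10 from 19591949 to 19610229 on the plus strand with 7 exons. The other chains lie together on the plus strand of chromosome 16. Ifnar2 (ENSMUSG00000022971.18, 9 exons) runs from 91372783 to 91405589, Ifnar1 (ENSMUSG00000022967.12, 11 exons) from 91485238 to 91507441 and Ifngr2 (ENSMUSG00000022965.7, 7 exons) from 91547072 to 91565623. Il10rb, which encodes a shared chain of the IL-10 and interferon lambda receptors, lies between Ifnar2 and Ifnar1, so that 4 receptor genes occupy 192.841 kb. The labels name mm9 as the build, and all coordinates given here are those of GRCm38.

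The windows hold the 250 bases before the RefSeq transcript start (GRCm38.p6, written 5′ to 3′ on the gene's strand). They are chr4:88522795-88523044 on the minus strand for Ifnb1, chr16:91484965-91485214 on the plus strand for Ifnar1 and chr10:19591699-19591948 on the plus strand for Ifngr1. Capitals mark matches on either strand to the NF-kB letters GGGNNNNNCC, the IRF letters AANNGAAA, the TATA letters TATAAA and the GC box GGGCGG.
Ifnb1: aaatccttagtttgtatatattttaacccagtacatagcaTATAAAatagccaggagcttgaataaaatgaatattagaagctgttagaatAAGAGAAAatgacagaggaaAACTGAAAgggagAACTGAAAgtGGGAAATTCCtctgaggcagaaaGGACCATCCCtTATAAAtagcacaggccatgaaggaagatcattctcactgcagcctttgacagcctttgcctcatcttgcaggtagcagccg
Ifnar1: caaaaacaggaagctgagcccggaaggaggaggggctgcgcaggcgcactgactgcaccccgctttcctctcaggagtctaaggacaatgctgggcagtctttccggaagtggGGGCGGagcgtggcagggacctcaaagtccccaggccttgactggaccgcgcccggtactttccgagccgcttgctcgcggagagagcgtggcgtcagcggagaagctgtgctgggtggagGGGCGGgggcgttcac
Ifngr1: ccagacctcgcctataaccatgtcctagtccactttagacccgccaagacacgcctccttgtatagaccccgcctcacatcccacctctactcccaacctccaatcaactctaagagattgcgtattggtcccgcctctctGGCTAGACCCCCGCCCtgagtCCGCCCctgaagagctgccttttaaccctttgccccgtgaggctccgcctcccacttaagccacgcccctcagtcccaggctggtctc

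The Ifnb1 window held 2 NF-kB matches, at -116 and -93 from the start, 3 IRF matches, at -159, -139 and -126, and 2 TATA matches, at -210 and -82. The NF-kB and IRF matches sat within 1 stretch upstream of the nearer TATA match, and the GC content was 39.6%. The Ifnar1 window had a GC content of 65.6% and held 2 GC boxes and no match to the NF-kB, IRF or TATA letters. The Ifngr1 window, at 59.2% GC, held 1 NF-kB match on the minus strand at -109, directly followed by a GC box at -99, and a further GC box at -88. The windows of Ifnar2 (54.0% GC) and Ifngr2 (74.0% GC) had no IRF and no TATA match, and that of Ifngr2 held 4 NF-kB and 4 GC box matches, some of them overlapping. The Ifnar2 window alone held a match to the GAS letters TTCNNNGAA, the pattern of interferon-gamma-activated sites, at -214, and no window held the AP-1 letters TGANTCA. Over 32536 mouse promoter windows of the same length, 46.0% held the NF-kB letters, 21.3% the IRF letters, 12.3% the TATA letters, 33.0% the GC box, 7.04% the GAS letters and 6.73% the AP-1 letters, and the median GC content was 52.4%. Such matches are descriptions of the letters, which were chosen with the sequences in view, and not evidence of binding.

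The LPS libraries held 15588502 reads at 0 h, 7263258 at 2 h and 32659392 at 4 h, recovered from the authors' values as whole reads. With 1 library per time, differences between times had no replicate check and no test, and the intervals cover counting error only. The scaling between libraries matters here: relative to the authors' factors, scaling to library totals put values at 0.632 of their size at 2 h and 0.565 at 4 h. Over the 17854 genes whose mean value reached 1, it moved the median log2 change from -0.05 to -0.68 at 2 h and from -0.04 to -0.80 at 4 h. By the 2-fold mark, 20.5% of these genes were higher and 24.7% lower at 2 h than at 0 h, and 22.2% were higher and 23.6% lower at 4 h. From 2 h to 4 h, 17.9% were at least 2-fold higher and 15.2% lower. Of the genes past 2-fold at 4 h, 48.5% were higher with the authors' factors, 63.5% after centring each library on its median and 22.5% with library totals. Of 10 macrophage markers, 10 reached a value of 1 in at least 1 library, with summed authors' values of 335815 to 370892. Of 10 markers of T and NK cells, the usual sources of interferon gamma, 5 reached a value of 1 in at least 1 library. The T and NK cell markers summed to 104 to 255, and among them Cd3e, Cd3g, Ncr1 and Trbc2 had no read. Sums of other marker lists differed between times in the authors' values, and their part in the results was not tested. At 0, 2 and 4 h, those of plasmacytoid dendritic cells, known for high interferon output, were 1846, 2620 and 4115 with Klk1 at 0, and those of dendritic cells 65.0, 142 and 341. Those of B cells were 1829, 950 and 566 with Ms4a1 at 0, and those of neutrophils 6898, 11506 and 9062.

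Ifnb1 was almost silent at 0 h, was highest at 2 h and was lower again at 4 h. In bulk RNA such as this, fewer cells expressing a gene and less RNA per cell cannot be told apart. Ifnb1 had 1 read at 0 h, 35 reads at 2 h and 38 reads in the much deeper 4 h library. In reads per 1000000 (RPM), the 0 h library stood at 0.0641 RPM (95% Wilson interval 0.0113 to 0.363), the 2 h library at 4.82 RPM (3.47 to 6.70) and the 4 h library at 1.16 RPM (0.848 to 1.60). No pair of these intervals overlaps. The ratio of 2 h to 0 h in the authors' values was 119, with a counting interval of 20.0 to 4825 that is wide because it rests on 1 read. The ratio of 4 h to 0 h was 32.1 (5.42 to 1301). Between 2 h and 4 h the ratio was 0.270 (0.166 to 0.440), and it was 0.241 with library totals and 0.274 with TMM factors. On the scale of log2(value + 1), the changes were 5.56 at 2 h and 3.72 at 4 h.

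The other interferon genes stayed at or near 0 after LPS. Among 20 listed genes of the alpha, epsilon, kappa, zeta, gamma and lambda types, none reached the mean value of 1. Ifna5, an interferon alpha, had 5 reads at 4 h, Ifnk had 1 read at 2 h and 1 at 4 h, and Ifng had 1 read at 4 h. No other listed gene had a read in any LPS library. Reads of the near-identical interferon alpha copies can be lost or split in counting, so their values are uncertain.

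Both chains of the type I receptor were higher after LPS. Ifnar1, which encodes the chain bound by TYK2, had 2697 reads at 0 h, 3130 at 2 h and 15593 at 4 h, or 173, 431 and 477 RPM. In the authors' values it was 3.94-fold higher at 2 h (counting interval 3.74 to 4.15) and 4.88-fold higher at 4 h (4.69 to 5.09), and with library totals 2.49-fold and 2.76-fold higher. Most of its difference from 0 h was present at 2 h, since 4 h was only 1.24-fold above 2 h. Ifnar2, which encodes the high-affinity binding chain, had 2634, 1817 and 8597 reads, or 169, 250 and 263 RPM. It was 2.34-fold higher at 2 h (2.20 to 2.49) and 2.76-fold higher at 4 h (2.64 to 2.88) in the authors' values, but 1.48-fold and 1.56-fold higher with library totals, below the 2-fold mark. Ifnar2 overlaps the predicted gene Gm21970 on the same strand, so its reads may be split between them. The authors' values of Gm21970 were 698 at 0 h, 924 at 2 h and 1166 at 4 h.

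The chains of the interferon gamma receptor moved apart. Ifngr2 had 2084 reads at 0 h, 1522 at 2 h and 7842 at 4 h, or 134, 210 and 240 RPM. It was 2.48-fold higher at 2 h (2.32 to 2.65) and 3.18-fold higher at 4 h (3.03 to 3.34), and 1.57-fold and 1.80-fold higher with library totals. Ifngr1 had 4322, 1406 and 2424 reads, or 277, 194 and 74.2 RPM. Its value at 4 h was 0.474 of that at 0 h (0.451 to 0.498) with the authors' factors, 0.458 with TMM factors and 0.268 with library totals. At 2 h its direction depended on the scaling, with a ratio to 0 h of 1.10 (1.04 to 1.17) in the authors' values and 0.698 (0.657 to 0.742) with library totals. From 2 h to 4 h it was lower under each scaling, at 0.429 of the 2 h value with the authors' factors, 0.383 with library totals and 0.435 with TMM factors. Ifngr1 was the only one of the 5 genes below its 0 h value at 4 h in the authors' values, with TMM factors and with library totals.

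By the 2-fold mark in the authors' values, 4 of the 5 genes were higher and 0 lower at 2 h. At 4 h, 4 were higher and 1, Ifngr1, lower. Over all genes with a mean of at least 1, 20.5% were higher and 24.7% lower at 2 h, and 22.2% and 23.6% at 4 h. From 2 h to 4 h, 0 of the 5 were higher and 2, Ifnb1 and Ifngr1, were lower, beside 17.9% and 15.2% over all genes. With library totals, 2 genes, Ifnb1 and Ifnar1, were past the mark upwards at 2 h and at 4 h. Ifngr1 was past it downwards at 4 h. Over all genes with this scaling, 13.6% were higher and 39.6% lower at 2 h, and 12.4% and 42.6% at 4 h. After centring, Ifngr1 at 4 h had a log2 change of -0.71 and was within the mark.

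**Figure D1:**
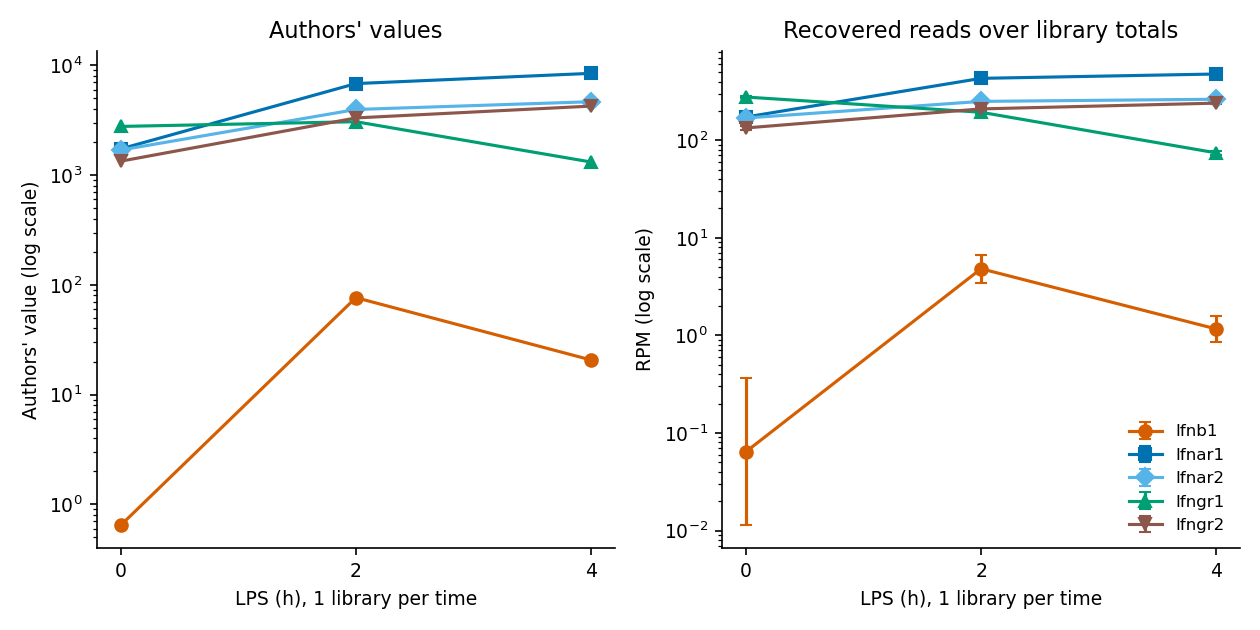
Values of the 5 genes at 0, 2 and 4 h of LPS, as the authors' values (left) and as RPM from the recovered reads with 95% Wilson intervals (right), both on log axes with 1 library per time. Ifnb1 is highest at 2 h on both axes, Ifnar1, Ifnar2 and Ifngr2 lie above their 0 h values at both times, and Ifngr1 is lowest at 4 h.

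Ratios of the chains within a library do not depend on the factor given to that library. The reads of Ifngr2 over those of Ifngr1 were 0.482 at 0 h (counting interval 0.457 to 0.508). The same ratio was 1.08 at 2 h (1.01 to 1.16) and 3.24 at 4 h (3.09 to 3.39), and no pair of intervals overlaps. Ifnar2 over Ifnar1 went the other way, from 0.977 (0.925 to 1.03) to 0.581 (0.548 to 0.615) and 0.551 (0.537 to 0.566), and its 2 h and 4 h intervals overlap. Across the receptors, Ifnar1 over Ifngr1 was 0.624 at 0 h, 2.23 at 2 h and 6.43 at 4 h.

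Per length of the main transcript, the order of the receptor chains at 0 h was Ifngr1 at 131 reads per kilobase and 1000000 reads (RPKM), Ifnar2 at 55.5, Ifnar1 at 44.3 and Ifngr2 at 36.1. At 2 h Ifnar1 stood first at 110, before Ifngr1 at 91.7, Ifnar2 at 82.1 and Ifngr2 at 56.5. At 4 h Ifnar1 was at 122, Ifnar2 at 86.4, Ifngr2 at 64.8 and Ifngr1 last at 35.1. Ifnb1 on this scale was at 0.0855, 6.43 and 1.55. The place of Ifnar1 depends on the length used: over all its annotated exons it was at 29.1, 72.5 and 80.4, which put it last at 0 h and made it differ little from Ifnar2 at 2 h (75.1) and 4 h (79.1). Ifngr1 was first at 0 h and last at 4 h with both lengths.

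**Figure D2:**
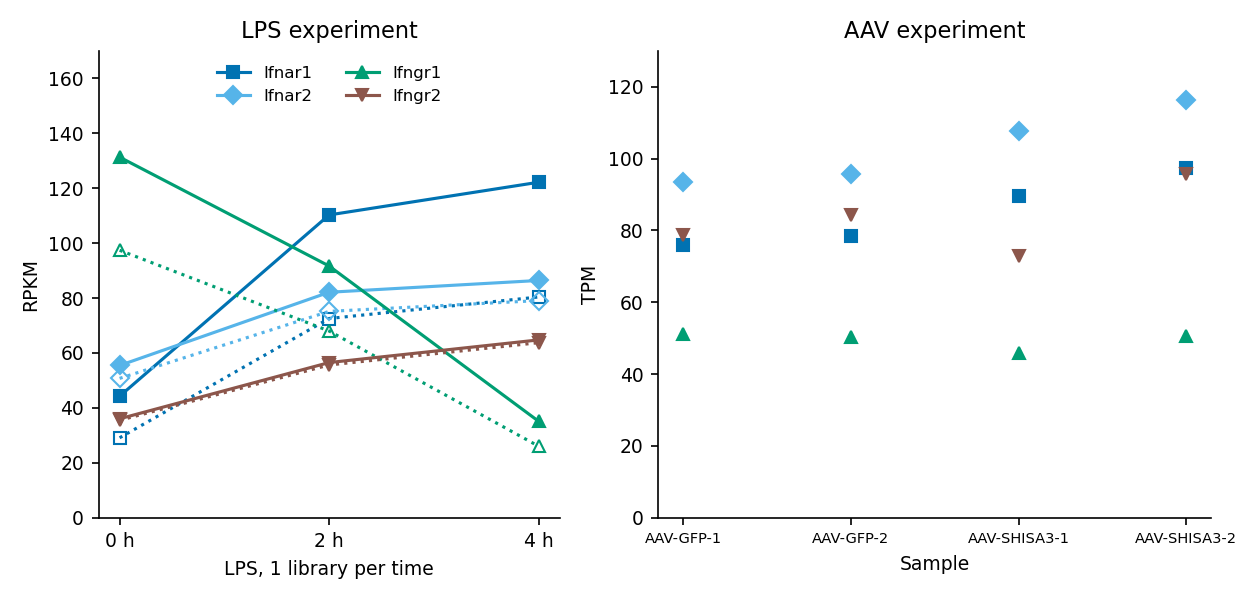
Levels of the 4 receptor chains per length: RPKM in the LPS libraries (left; filled symbols and solid lines, main transcript; open symbols and dotted lines, all annotated exons) and TPM in the AAV samples (right). Ifngr1 goes from the highest chain at 0 h to the lowest at 4 h, and in each AAV sample Ifnar2 is the highest and Ifngr1 the lowest.

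The genes upstream and downstream of these receptors were read from lists of pathway members. In the interferon beta induction list 9 of 16 genes passed the 2-fold mark upwards at 2 h and 9 at 4 h, and 0 passed it downwards (medians 1.13 and 1.08 on the log2 scale). The highest folds at 4 h were those of Irf7, the factor that amplifies interferon production, at 26.4-fold, and of Nfkb1 at 8.31-fold, while Tlr4 was at 0.671 and Ticam2 at 0.764 of their 0 h values. All 7 receptor-proximal genes passed the 2-fold mark upwards at both times (medians 1.92 and 2.67), led at 4 h by the kinase gene Jak2 at 29.6-fold and by Stat2 at 9.15-fold. Of 10 genes for signalling inhibitors and receptor turnover, 5 were higher at 2 h and 6 at 4 h. Socs3 (165-fold) and Socs1 (88.2-fold), whose proteins block JAK activity, led at 4 h, and Prkd2, a kinase gene tied to IFNAR1 turnover, was the 1 gene past 2-fold downwards, at 0.465, and after centring 0 were. With library totals fewer genes passed the mark upwards: 6 induction genes, 4 receptor-proximal genes and 4 inhibitor genes at each time. Downwards there were 2, 0 and 1 at 2 h and 3, 0 and 2 at 4 h. Over all genes with this scaling, 13.6% were higher and 39.6% lower at 2 h, and 12.4% and 42.6% at 4 h.

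All 20 type I interferon targets passed the 2-fold mark upwards at both times, with median log2 changes of 4.13 and 5.20, and 10 of them were at least 2-fold higher at 4 h than at 2 h, the interval over which Ifnb1 was lower. With library totals 19 passed the mark at 2 h and 20 at 4 h, and 8 were higher at 4 h than at 2 h. Over all genes with this scaling the shares were 13.6%, 12.4% and 12.6%. The chemokine gene Cxcl10 was 184-fold and the antiviral gene Rsad2 127-fold higher at 4 h. Of 16 interferon gamma targets, 15 were higher at both times, with Nos2, the inducible nitric oxide synthase, and the chemokine gene Cxcl9 at the top. These had 9 and 6 reads at 0 h and 94656 and 3338 at 4 h. Ciita, the master regulator of MHC class II genes, was the exception at 0.327 of its 0 h value at 4 h. With library totals 15 of these 16 were higher at 2 h and 12 at 4 h. Many genes of these 2 lists are also direct targets of NF-kB or of the other class of interferon. Of the related class II cytokine receptors, 5 of 7 reached a mean value of 1, but Ifnlr1 (6, 4 and 14 reads) and Il22ra2 (6, 0 and 1 reads) had too few reads for a 2-fold difference to be read. Of the other 3, Il20rb was 3.63-fold higher at 2 h and 6.50-fold higher at 4 h, and Il10ra was 2.31-fold and 1.15-fold higher. With library totals Il10ra (6392, 4352 and 8719 reads) was above its 0 h value at 2 h and below it at 4 h. Il10rb, the neighbour of Ifnar2 and Ifnar1, was 1.17-fold higher at 2 h and 1.36-fold higher at 4 h, less than either of them, and with library totals it was below its 0 h value, at 0.742 and 0.768.

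In the AAV experiment AAV-SHISA3 was compared with AAV-GFP after 48 h. Shisa3 itself was at 7.88 and 10.85 TPM in AAV-GFP and at 12.31 and 17.81 TPM in AAV-SHISA3. Its ranges did not overlap, but the difference did not pass limma's test (log2 fold change 0.63, adjusted p = 0.138). The 11218 genes whose mean TPM reached 1 were tested by limma with a variance trend, on the scale of log2(TPM + 1), and p-values were adjusted by the Benjamini-Hochberg method. Of these genes, 2.23% were called higher and 4.10% lower. The AAV-SHISA3 range lay wholly above that of AAV-GFP in 18.2% and wholly below it in 41.2%. Over all genes tested, the median log2 change was -0.10 and became 0.01 after centring, which changed the calls from 250 higher and 460 lower to 410 higher and 230 lower. With 2 samples against 2, the smallest p that an exact permutation test of 1 gene allows is 0.333. The depth behind the TPM values is unknown.

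None of the 5 genes was called in either direction by limma, and 2 of them, Ifnar1 and Ifnar2, had an unadjusted p under 0.05, which 28.0% of all genes tested (3137) also had. Ifnb1 was low in every sample, at 1.45 and 0.95 TPM in AAV-GFP and 1.51 and 0.99 TPM in AAV-SHISA3. The groups overlapped almost fully, with a log2 fold change of 0.03 (SE 0.24, 95% interval -0.55 to 0.61, limma adjusted p = 0.940). Apart from it, the highest value of any of the 20 other interferon genes was 0.43 TPM, for Ifna9 in 1 AAV-SHISA3 sample.

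Ifnar1 was at 76.07 and 78.31 TPM in AAV-GFP and 89.55 and 97.26 TPM in AAV-SHISA3. The AAV-SHISA3 range lay wholly above that of AAV-GFP, and the log2 fold change was 0.27 (SE 0.081, 95% interval 0.07 to 0.47, limma adjusted p = 0.104). Ifnar2 was at 93.38 and 95.60 TPM in AAV-GFP and 107.54 and 116.37 TPM in AAV-SHISA3, again without overlap. Its log2 fold change was 0.24 (SE 0.079, 95% interval 0.05 to 0.44, limma adjusted p = 0.122). Thus 2 of 5 genes had their AAV-SHISA3 range wholly above, and 0 of 5 wholly below, beside 18.2% and 41.2% over all genes. After centring, the log2 fold changes were 0.39 for Ifnar1 (limma adjusted p = 0.0518) and 0.36 for Ifnar2 (limma adjusted p = 0.0584), on the same side of the threshold.

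The chains of the interferon gamma receptor overlapped between the groups. Ifngr1 was at 51.19 and 50.23 TPM in AAV-GFP and 45.89 and 50.65 TPM in AAV-SHISA3 (log2 fold change -0.07, 95% interval -0.29 to 0.15, limma adjusted p = 0.632). After centring its log2 fold change was 0.04. Ifngr2 was at 78.66 and 84.41 TPM in AAV-GFP and 72.93 and 95.61 TPM in AAV-SHISA3 (log2 fold change 0.04, 95% interval -0.30 to 0.37, limma adjusted p = 0.889). The AAV-SHISA3 samples lay on either side of the AAV-GFP samples for Ifngr2.

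**Figure D3:**
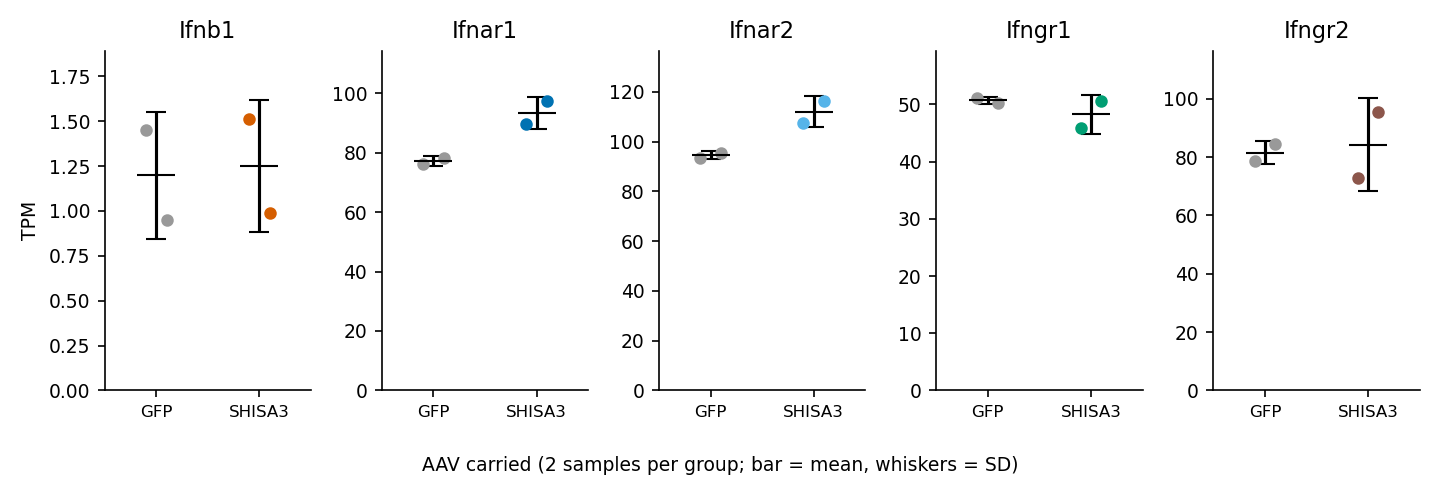
TPM of the 5 genes in each AAV sample (points), with the mean (bar) and SD (whiskers) of the 2 samples per group, on axes from 0. The groups are apart for Ifnar1 and Ifnar2 and overlap for Ifnb1, Ifngr1 and Ifngr2.

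Within a sample, TPM are levels per length. In AAV-GFP the order was Ifnar2, Ifngr2, Ifnar1 and Ifngr1, and the ranges of Ifngr2 (from 78.66 TPM) and Ifnar1 (to 78.31 TPM) nearly met. In AAV-SHISA3, Ifnar2 was first, the ranges of Ifnar1 and Ifngr2 overlapped, and Ifngr1 was last. The ratio of Ifnar2 to Ifnar1 varied little, at 1.23 and 1.22 in AAV-GFP and 1.20 and 1.20 in AAV-SHISA3. The ratio of Ifnar1 to Ifngr1 was 1.49 and 1.56 in AAV-GFP and 1.95 and 1.92 in AAV-SHISA3, without overlap. That of Ifngr2 to Ifngr1 was 1.54, 1.68, 1.59 and 1.89, with overlap. These ratios were looked at after the values were seen and were not tested.

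**Figure D4:**
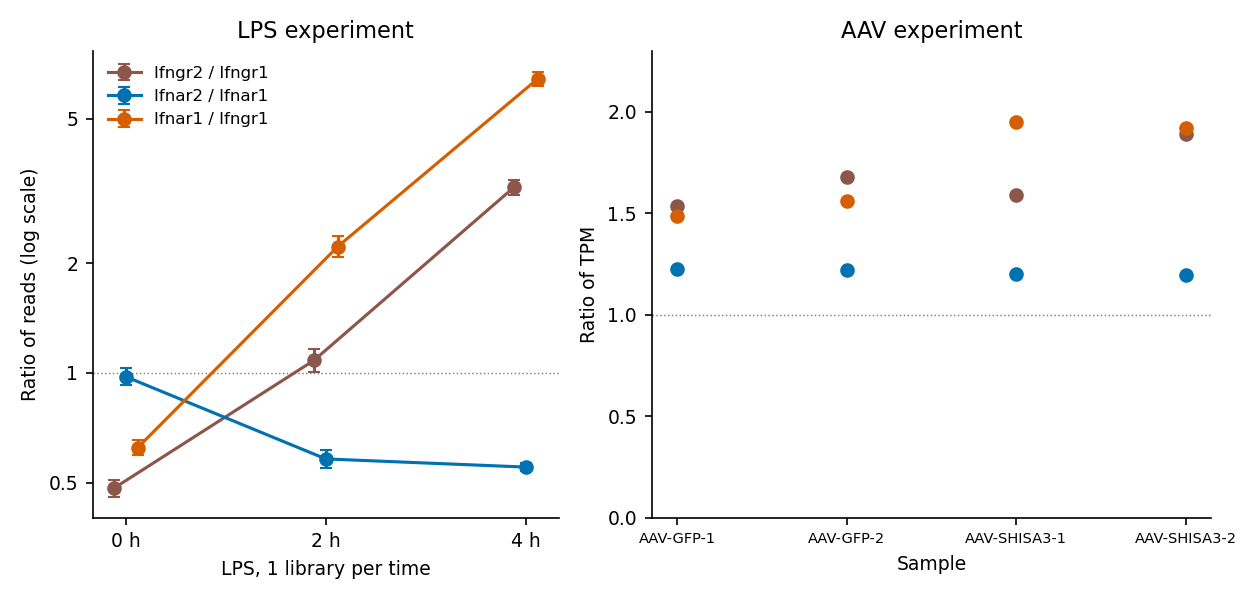
Ratios between receptor chains within each library, as reads in the LPS experiment (left, log axis, with 95% counting intervals) and as TPM in the 4 AAV samples (right). Ifngr2 over Ifngr1 and Ifnar1 over Ifngr1 are higher at each later LPS time while Ifnar2 over Ifnar1 is lower at 2 and 4 h than at 0 h, and in the AAV samples Ifnar2 over Ifnar1 stays between 1.20 and 1.23.

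Although Ifnb1 differed by less than the spread between samples, 9 of 20 type I interferon targets were called higher in AAV-SHISA3 and 0 lower (median log2 fold change 0.25, against -0.10 for all genes). They were Cxcl10, Rsad2, Cmpk2, Ifit2, Ifit1, Ifit3, Mx2, Oasl1 and Mx1. Cxcl10 was at 177 and 192 TPM in AAV-GFP and 941 and 654 TPM in AAV-SHISA3, a log2 fold change of 2.08 (limma adjusted p = 0.0142). Rsad2 rose by 1.30, from 252 and 244 TPM to 658 and 569 TPM (limma adjusted p = 0.0113), and Cmpk2, Ifit2 and Ifit1 rose by 1.20, 0.85 and 0.72. Other targets were not called: Isg15 had a log2 fold change of -0.04 and Bst2 of -0.25, and neither passed the threshold. The AAV-SHISA3 range lay wholly above that of AAV-GFP in 11 of the 20 genes (18.2% over all genes) and wholly below it in 5 (41.2% over all genes). Of 14 interferon gamma targets tested, 3 were called higher, the guanylate-binding protein genes Gbp5 (1.07) and Gbp3 (0.73) and the GTPase gene Iigp1 (1.27), and 0 lower (median 0.30). Leaving out 1 sample leaves 1 sample in a group, so such fits cannot show whether these calls rest on single samples. The calls depended on the settings. With all 4 samples, 0 genes of the 2 target lists were called by limma without the trend, and 0 over genes above 0 in at least 1 sample. With a mean of at least 0.1 TPM, 3 type I and 1 interferon gamma targets were called. The interferon gamma targets called higher numbered 6 with the replicate number as a block, 6 without any filter, in a fit that limma marked as unreliable, and 4 after centring. Marker sums of 4 other cell types did not overlap between the groups. Among single genes, 18.2% lay wholly above and 41.2% wholly below, so such separation was common. Those of neutrophils summed to 607 and 579 TPM in AAV-GFP and 1110 and 696 TPM in AAV-SHISA3. Of 10 neutrophil markers, 9 reached 1 TPM in at least 1 sample, the rule used for each list. Those of B cells summed to 31.3 and 30.3 against 44.8 and 37.7 TPM, with 2 of 7 reaching 1 TPM. T and NK cell markers summed to 5.94 and 7.59 against 9.13 and 10.63 TPM, with 1 of 10 reaching 1 TPM and Cd3d, Cd3e, Cd3g, Ncr1 and Trbc2 at 0. Dendritic cell markers were lower, at 3.47 and 4.33 against 2.87 and 3.21 TPM, with 1 of 6 reaching 1 TPM, and fibroblast markers overlapped, at 12.6 and 16.4 against 9.42 and 12.9 TPM. The part of these cell types in the target values was not tested. The summed markers of plasmacytoid dendritic cells were at 33.6 to 46.7 TPM with Klk1 at 0.

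Upstream of Ifnb1, 2 of 16 induction genes were called higher and 1 lower (median -0.05). The LPS co-receptor gene Cd14 rose by 0.78 on the log2 scale (limma adjusted p = 0.0153) and Nfkb1 rose by 0.54 (limma adjusted p = 0.0418). Ticam2, the adaptor gene between TLR4 and interferon induction, fell by 0.62, from 24.12 and 24.10 TPM to 15.50 and 15.14 TPM (limma adjusted p = 0.0279). None of the 7 receptor-proximal genes was called by limma, and 0 of them had an unadjusted p under 0.05 (median -0.02). Among 10 inhibitor and turnover genes, Socs1 rose by 0.83 and Socs3 by 0.82 (limma adjusted p = 0.0263 and 0.0272), and 0 were called lower (median 0.01). All calls in these 2 lists, of Cd14, Nfkb1, Ticam2, Socs1 and Socs3, were lost without the trend and over genes above 0 in at least 1 sample. Fits with 1 sample left out have 1 sample in a group and cannot show whether these calls rest on single samples. With a mean of at least 0.1 TPM, 1 induction gene was called higher. Of the 3 related class II receptors tested, 0 were called by limma and 0 had an unadjusted p under 0.05 (median 0.02), and Il10rb was at 0.02.

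**Figure D5:**
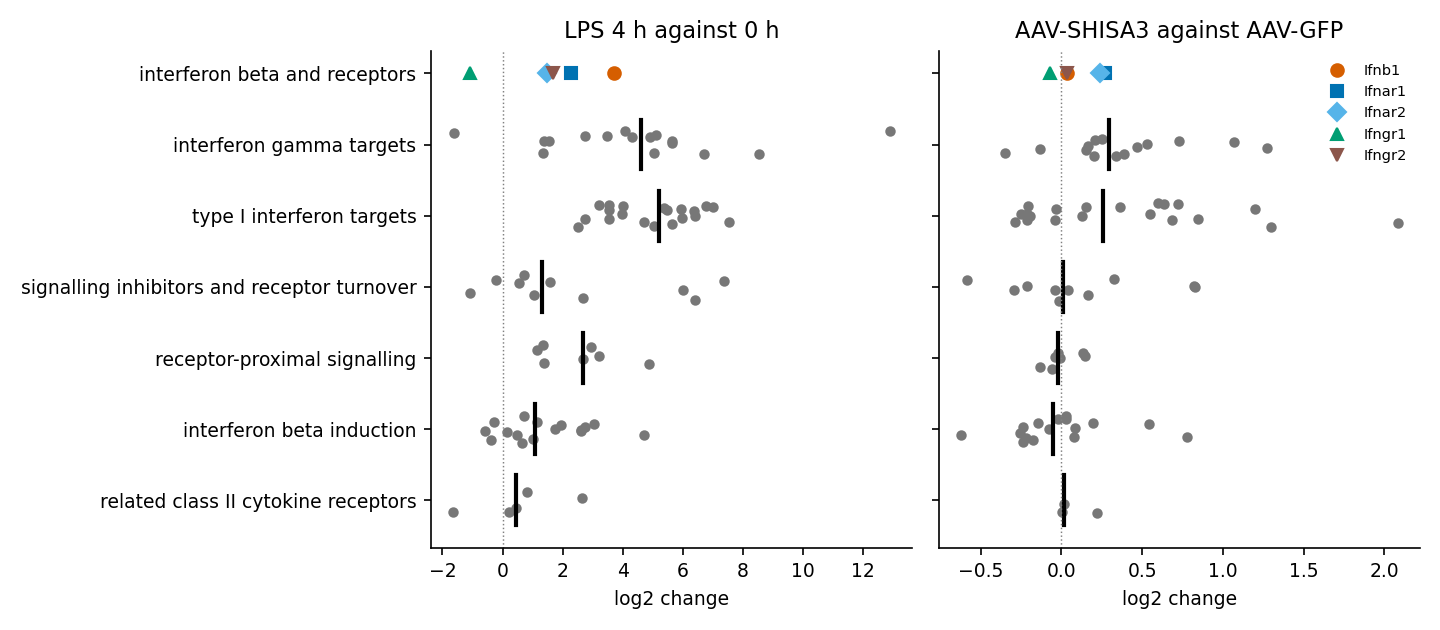
Log2 changes of the 5 genes (coloured, top line) and of the tested genes of 6 pathway lists (grey points; black bars, list medians) at 4 h of LPS against 0 h (left, 1 library per time) and in AAV-SHISA3 against AAV-GFP (right, 2 samples per group). The medians of both target lists lie to the right on the LPS side, at 4.60 and 5.20, with Ciita alone to the left of 0, and the lists spread widely around medians of 0.30 and 0.25 on the AAV side.

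Genes with the pattern most like each of the 5 over all 7 libraries were found among 10532 genes, by the Euclidean distance of log2(value + 1) centred within each experiment. For Ifnb1 they were Rgcc (distance 0.77), Icam1 (0.82) and Nfkbiz (0.82), which like Ifnb1 were highest at 2 h. Icam1, the leukocyte adhesion receptor gene, had authors' values of 1303, 32624 and 14554. For Ifnar1 they were Rabgef1 (0.14), Rhoc (0.18) and the TNF receptor gene Tnfrsf1a (0.18), and for Ifnar2 they were Timm23 (0.13), Piezo1 (0.14) and Ybx3 (0.15). For Ifngr1 they were Acsf2 (0.13), Htatsf1 (0.14) and Neurl3 (0.15), and for Ifngr2 they were Ptpn2 (0.17), Minpp1 (0.19) and Tbk1 (0.19). Ifnb1 lay much farther from its nearest genes than the receptor chains did from theirs. However, Ifnb1 had 1, 35 and 38 reads in the LPS libraries, far fewer than any receptor chain. The distance grows with counting error and with the size of the changes, and their parts were not tested.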

How the data were processed

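Total RNA of 7 BMDM samples was sequenced as 150 bp paired-end libraries. The LPS values are a normalized signal that the authors deposited per gene. In each library 100% of them are a whole number of reads times 1 factor (tolerance 0.1 read), which gave back the reads. The AAV values deposited by the authors carry no named unit and were read as TPM because each sample summed to just under 1000000 and the values fell with exon length (slope -0.94 on log2 axes over 7342 genes, against LPS reads at 0 h). The labels name mm9; the aligner and the program behind the values are not given in the sources used here. Positions came from GENCODE M21 (GRCm38), which held 99.2% of the LPS identifiers and 96.5% of the AAV symbols, and promoters from RefSeq, where all 5 genes matched.

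LPS folds had exact (Clopper-Pearson) counting intervals at the 95% level, and calls at 2-fold were made on log2(value + 1) for genes whose mean reached 1. AAV genes were tested with limma 3.58.1 in R 4.3.3 on log2(TPM + 1), with an adjusted p threshold of 0.05, and TMM factors came from edgeR 4.0.16. On simulated data of 11218 genes for the AAV comparison, 99 of 100 genes with a log2 change of 1 were recovered. So were 100 of 100 with a change of 2, with 10 false calls. The simulated noise depended only on the mean level, as the variance trend assumes, and not on the gene. This setting favoured recovery, and changes as small as those of the 5 genes were not simulated. The 5 genes and the pathway lists were chosen with earlier results of these data known. Named genes were the 5, the 3 genes most alike each, list genes past the threshold (up to 5 by size) and the 2 largest LPS changes either way; Isg15, Bst2, Il10rb, Il10ra, Ifnlr1, Il22ra2, Ifit3, Mx1, Mx2, Oasl1 and Ifna9 were added after their values were seen. Alternatives changed scaling, pseudocount, filter, trend, block and samples. One filter, genes above 0 in at least 1 sample, was added after the data were seen.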

Additional observations from a re-analysis of the deposited data

How the results depend on the processing

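None of the 5 genes was called in the AAV comparison under any of the 12 alternatives; the smallest limma adjusted p was 0.0518, for Ifnar1 after centring. Of 59 alternative log2 fold changes of the 5 genes, 5 changed sign, all of them near 0 in the main test: Ifnb1 was at -0.13 without AAV-GFP replicate 2 and -0.14 without AAV-SHISA3 replicate 1 (-0.14 to 0.20 over the samples left out), Ifngr1 was at 0.044 after centring, and Ifngr2 was at -0.02 without AAV-GFP replicate 1 and -0.16 without AAV-SHISA3 replicate 2 (-0.16 to 0.23). Ifnb1 was not tested where at least 1 TPM in every sample was asked for.

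The counts over all genes (250 higher, 460 lower) depended strongly on the settings, and the cause was not tested. They were 410 and 230 after centring, 52 and 57 with a mean of at least 0.1 TPM, and 1 and 4 without the trend, with 2959 genes at an unadjusted p under 0.05. Without any filter they were 950 and 1605, but most residual variances were then exactly 0 and limma warned that the fit was unreliable; over the 20300 genes above 0 in at least 1 sample, an alternative chosen after seeing the data, limma made 0 and 0 calls, with 3529 genes at an unadjusted p under 0.05. With the replicate number as a block they were 424 and 851. The labels do not say what a shared replicate number stands for, and the differences between replicates correlated at 0.188 between the groups. Leaving out 1 sample gave 0 to 27 higher and 0 to 7 lower. Of the pathway genes (16 higher, 1 lower), 5 were higher with a mean of at least 0.1 TPM. There were 0 higher without the trend and 0 over genes above 0 in at least 1 sample. The lower ones numbered 6 with no filter, 2 with at least 1 TPM in every sample and 5 under the replicate block. They numbered 0 with a mean of at least 0.1 TPM, without the trend and over genes above 0 in at least 1 sample.

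For LPS, none of 105 alternative values of the 5 genes reversed a 2-fold change and 5 crossed the 2-fold mark. With library totals, 2 of the 5 genes passed the mark upwards at 2 h and 2 at 4 h, with Ifnar2 at 0.57 and 0.64 and Ifngr2 at 0.65 and 0.84 on the log2 scale, and centring left 0 lower at 4 h. Pathway genes at least 2-fold lower at 2 h were 5 with library totals, 3 with TMM factors, 0 with a pseudocount of 5 and 0 with a mean of at least 5, and with library totals they were 7 at 4 h and 6 from 2 h to 4 h. Depth limits Ifnb1 most, with 1 read at 0 h.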
